A study of Homo sapiens with 12 samples.

Results

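The genes described here are 10 feedback and output genes of the fibroblast growth factor (FGF) and ERK pathway, measured in HK2 cells, an immortalised line of human proximal tubular epithelial cells. They were chosen by name and matched by symbol to the Ensembl identifiers, and all 10 were found among the 62703 identifiers. They are the ERK phosphatases DUSP4, DUSP5 and DUSP6, the Sprouty genes SPRY1, SPRY2 and SPRY4, the SPRED genes SPRED1 and SPRED2, and the ETS transcription factors ETV4 and ETV5. The 12 RNA-seq libraries fall into 4 groups of 3. NG cells received a control vector in 5.5 mM glucose, HG cells were kept in 50 mM glucose, si-FGF9 cells received an siRNA against FGF9 in 5.5 mM glucose, and HG + OE-FGF9 cells received an FGF9-overexpressing vector in 50 mM glucose. No non-targeting siRNA and no empty vector in 50 mM glucose were described for these cells, so that the siRNA or vector delivery cannot be told apart from the change of FGF9. In HG against NG, the change of glucose likewise cannot be told apart from the control vector, which was described for NG only. In the study's results text, mannitol is named for NG, so that it is not settled whether HG and NG differed in osmolarity as well as in glucose. The labels give no time of treatment and do not say whether the 3 libraries of a group came from separate cultures, so that p-values measure the spread between these libraries, which may be technical.

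FGF ligands bind receptor tyrosine kinases, which act through adaptors on RAS, RAF, MEK and finally the kinases ERK1 and ERK2. Active ERK induces its own inhibitors. DUSP6 removes the phosphates of ERK in the cytoplasm and DUSP5 and DUSP4 in the nucleus, Sprouty proteins restrain the step from the receptor to RAS and RAF, and SPRED proteins bring neurofibromin to RAS. ETV4 and ETV5 are activated by ERK and transcribed in response to FGF in many tissues, and RNA of DUSP6, SPRY4 and ETV5 is widely used as a readout of FGF signalling. In the kidney, FGF9 is known for its role in the progenitors of the nephron.

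The values are TPM (transcripts per 1000000 transcripts), which are scaled for transcript length and to a fixed sum in each library, so that levels of different genes can be set side by side but the depth of the libraries is unknown. limma was fitted to log2(TPM + 1) of 14639 genes, and a gene was called changed where the log2 fold change was at least 1 in either direction with an unadjusted p under 0.01. Genes with at least 1 TPM numbered 13795 to 13949 per library in NG, 12350 to 13111 in HG, 13008 to 13236 in HG + OE-FGF9 and 11549 to 12013 in si-FGF9, and the part of this difference in the results below was not tested. HG replicate 3 stood apart from the other HG libraries, with a median absolute log2 difference per gene of 0.393 and 0.554 to replicates 1 and 2, which differed from each other by 0.287. HG + OE-FGF9 replicates 1 and 2 were unusually alike at 0.0848, against 0.385 and 0.387 to replicate 3. The epithelial keratins were high, whereas the cadherin CDH1 reached at most 0.28 TPM. With EPCAM and CDH2, these 7 markers summed to 1293 to 1401 TPM in NG and 980 to 1592 TPM in HG. The sums were 1163 to 1189 TPM in HG + OE-FGF9 and 1035 to 1438 TPM in si-FGF9. EPCAM had means of 24.02, 10.85, 6.31 and 6.63 TPM in NG, HG, HG + OE-FGF9 and si-FGF9. The cadherin CDH2 had means of 89.1, 30.5, 20.9 and 17.7 TPM in that order. The 4 markers of the kidney tubule lineage summed to 107 to 111 TPM in NG, 79.4 to 116 TPM in HG, 27.7 to 53.5 TPM in HG + OE-FGF9 and 51.4 to 53.1 TPM in si-FGF9, mostly from the transcription factor PAX8. The 9 proximal tubule markers summed to 74.3 to 87.5 TPM in NG, 99.9 to 141 TPM in HG, 84.0 to 91.4 TPM in HG + OE-FGF9 and 177 to 197 TPM in si-FGF9, nearly all of it from GGT1, while the receptor LRP2 reached at most 0.02 TPM and the transporter SLC22A6 was listed at 0. The summed TPM of 7 markers of other kidney cells, blood and endothelium was at most 0.21. The 6 fibroblast markers summed to 5.14 to 12.4 TPM in NG and to 2.27 to 3.57 TPM in the other groups, mostly from COL1A1, with PDGFRA at 0.02 TPM or less, and the part of these marker levels in the results below was not tested. Over all genes tested the median log2 fold change against NG was -0.39 for HG, -0.51 for HG + OE-FGF9 and -0.79 for si-FGF9. After median-of-ratios scaling these medians were 0.01, 0.03 and 0.

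FGF9 itself was listed at 0 TPM in all 9 libraries of NG, HG and si-FGF9, and at 3.34, 4.03 and 3.82 TPM in HG + OE-FGF9. FGF9 RNA was thus measured in the overexpressing cells, while a reduction of FGF9 in si-FGF9 or HG could not be shown from these values. The genes below describe the downstream side of the pathway instead.

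Promoter sequence is shown for SPRY1 and SPRY2, which both had lower calls against NG in HG + OE-FGF9 and si-FGF9, as the stretch where ETS factors such as ETV4 and ETV5 could meet a target. RefSeq (GRCh38.p14) gave 10 starts for 6 of the 10 genes. The windows printed are the 250 bases before 1 start of each gene, 5′ to 3′ on the strand of the gene, at chr4:123396545-123396794 on the plus strand and chr13:80339660-80339909 on the minus strand. For SPRY1 this is the most upstream start. For SPRY2 it is the start nearest the coding sequence, so that the window lies inside the annotated gene (chr13:80335976-80340951). Capitals mark GGAAG, the ETS core, on either strand.
SPRY1: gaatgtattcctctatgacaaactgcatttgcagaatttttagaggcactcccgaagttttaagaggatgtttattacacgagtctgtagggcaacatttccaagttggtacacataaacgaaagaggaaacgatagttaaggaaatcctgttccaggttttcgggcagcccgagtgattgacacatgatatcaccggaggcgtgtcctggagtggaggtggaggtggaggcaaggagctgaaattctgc
SPRY2: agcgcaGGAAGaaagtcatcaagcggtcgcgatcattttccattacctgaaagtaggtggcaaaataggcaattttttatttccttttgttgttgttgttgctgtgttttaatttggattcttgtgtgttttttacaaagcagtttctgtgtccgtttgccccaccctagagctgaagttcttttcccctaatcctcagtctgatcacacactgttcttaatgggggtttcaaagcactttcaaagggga
The SPRY2 window holds 1 match and the SPRY1 window none. GGAAG was found on either strand in 8 of the 10 windows, from 5 of the 6 genes, and in 65.1% of 35116 promoters. The longer CCGGAAG, which contains GGAAG, was found in 1 window, of another SPRY1 start, and in 8.5% of promoters. TGACTCA, the AP-1 element, was found in none of the 10 windows and in 4.2% of promoters. A match is a description of the letters and not a measured site.

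In NG, SPRY2 was the highest of the 10 genes at 39.3 ± 1.44 TPM (SD, n = 3), followed by DUSP5 at 37.5 ± 0.541 TPM, and their libraries did not overlap. DUSP6 at 24.1 ± 3.52 TPM and ETV5 at 21.8 ± 1.08 TPM overlapped each other, and ETV4 came next at 14.1 ± 0.182 TPM. SPRED2 was at 9.63 ± 1.18 TPM. SPRED1 at 4.99 ± 0.381 TPM and SPRY1 at 4.25 ± 0.839 TPM overlapped, with SPRY4 below them at 2.87 ± 0.400 TPM. DUSP4 was between 0.05 and 0.36 TPM in all 12 libraries and was not tested. The other 9 genes passed the filter of at least 1 TPM in 3 libraries, and NG alone would have carried each of them past it.

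**Figure D1:**
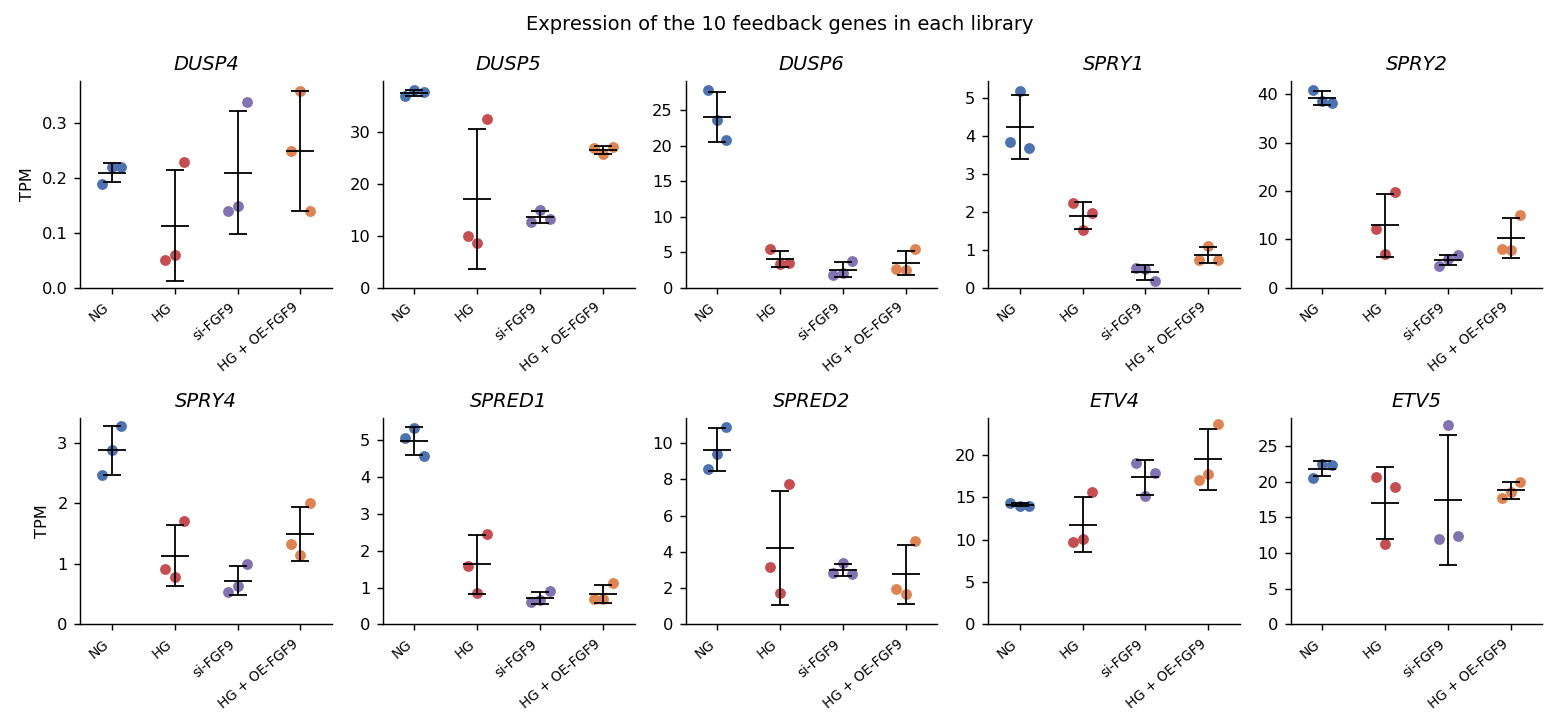
TPM of each of the 10 genes (y axis, linear from 0) in the 3 libraries of each of the 4 groups (x axis). Points are libraries, the wide dash is the mean and bars are the SD. DUSP6, SPRY1, SPRY2, SPRY4, SPRED1 and SPRED2 sit higher in all NG libraries than in any other library, DUSP5 has 1 HG library at 32.5 TPM, and ETV4 and ETV5 stay within 9.67 to 28.0 TPM throughout. Of all genes tested, 22.7% in HG, 32.7% in HG + OE-FGF9 and 42.2% in si-FGF9 were called lower than in NG. How many of all genes sit higher in all NG libraries was not counted.

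The summed TPM of the 10 genes was 161, 160 and 156 in NG and 65.8, 45.2 and 105 in HG. It was 77.1, 77.1 and 99.6 in HG + OE-FGF9 and 54.7, 71.2 and 59.1 in si-FGF9. ETV4 and ETV5 made up 22.6% ± 0.837 (SD, n = 3) of the sum in NG, 42.2% ± 7.79 in HG, 45.3% ± 1.68 in HG + OE-FGF9 and 56.1% ± 4.70 in si-FGF9. The Sprouty and SPRED genes made up 38.5% ± 0.538 in NG, 29.5% ± 3.13 in HG, 18.7% ± 4.21 in HG + OE-FGF9 and 17.2% ± 2.11 in si-FGF9. No NG library overlapped another group in either share. The DUSP genes made up 38.9% ± 1.37 in NG, 28.3% ± 5.75 in HG, 36.0% ± 2.97 in HG + OE-FGF9 and 26.7% ± 2.63 in si-FGF9, where HG + OE-FGF9 overlapped NG. These shares do not depend on a common scaling of a library. They were not corrected for GC content, which is 38.9% in SPRED1, 44.8% in SPRY1 and 60.8% in ETV4. The part of GC content in the shares was not tested.

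**Figure D2:**
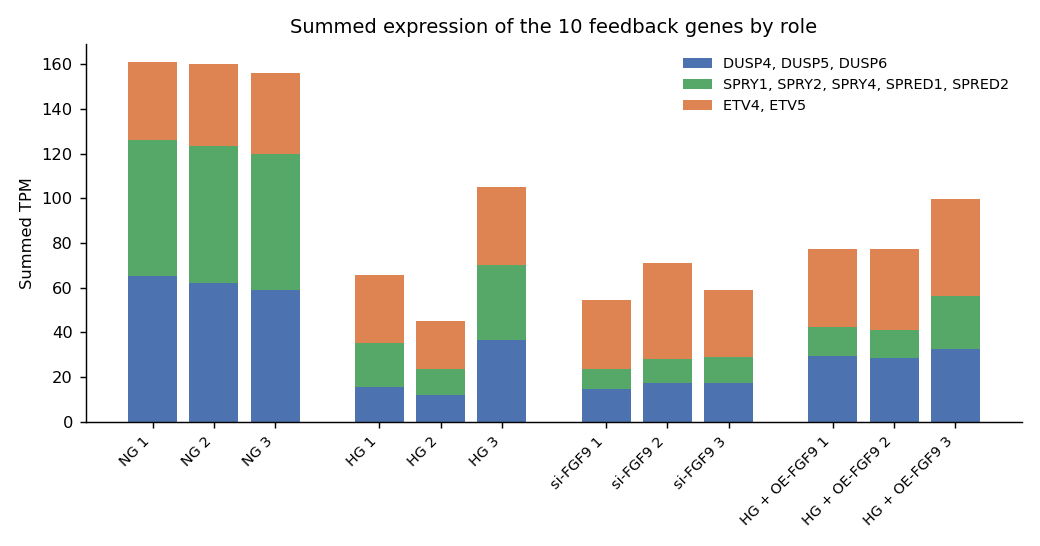
Summed TPM (y axis, from 0) of the 10 genes in each of the 12 libraries (x axis), divided into DUSP genes, Sprouty and SPRED genes, and ETV genes. The NG bars reach 156 to 161 TPM, the tallest bar of another group is HG replicate 3 at 105 TPM, and the ETV part differs less between the groups than the other parts.

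HG was compared with NG, from which it differs in glucose and in the control vector, described for NG only. Of the 9 genes tested, 5 were called lower in HG and 0 higher: DUSP5, DUSP6, SPRY2, SPRED1 and SPRED2. Over all genes tested 22.7% were called lower and 1.65% higher, and the median log2 fold change was -1.19 over the 9 genes against -0.39 over all genes. DUSP6 changed most, and ETV4 and ETV5 stayed within the spread of the libraries. The same NG libraries serve all comparisons with NG below.

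DUSP6, the cytoplasmic ERK phosphatase, was at 27.8, 23.7 and 20.8 TPM in NG and at 5.39, 3.34 and 3.52 TPM in HG. All HG libraries were far below all NG libraries, with a mean at 17.0% of that of NG and a log2 fold change of -2.32 ± 0.29 (SE; limma, Benjamini-Hochberg adjusted p = 0.000588). DUSP6 shares 1875 exonic bases with AC024909.2, an antisense gene on the opposite strand that was listed at 0 to 0.56 TPM, and whether the counting used strand is not given in the sources used here. DUSP5, the nuclear phosphatase, was at 36.9, 37.9 and 37.6 TPM in NG and at 10.0, 8.67 and 32.5 TPM in HG. The third HG library lay near NG and the other two well below it. The log2 fold change was -1.33 ± 0.35 (adjusted p = 0.00885 in limma), and -1.90 without HG replicate 3.

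SPRY2, an inhibitor of receptor tyrosine kinase signalling, was at 40.9, 38.7 and 38.3 TPM in NG and at 12.1, 6.86 and 19.7 TPM in HG. The groups did not overlap, and the log2 fold change was -1.64 ± 0.32 (limma, adjusted p = 0.0022). SPRY1 was at 3.85, 5.21 and 3.68 TPM in NG and at 2.24, 1.52 and 1.96 TPM in HG. SPRY4 was at 2.47, 2.88 and 3.27 TPM in NG and at 0.91, 0.78 and 1.71 TPM in HG. Both lay below NG in all HG libraries, with log2 fold changes of -0.85 and -0.88 and adjusted p of 0.00382 and 0.00532 in limma, short of the minimum fold change. On the log2(TPM + 1) scale the change of genes at such low values is understated, and with a pseudocount of 0.1 the values were -1.11 and -1.33.

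SPRED1, an adaptor that brings neurofibromin to RAS, was at 5.07, 5.33 and 4.58 TPM in NG and at 1.59, 0.86 and 2.46 TPM in HG, with a log2 fold change of -1.23 ± 0.22 (limma, adjusted p = 0.00152). SPRED2, its close relative, was at 8.58, 9.40 and 10.9 TPM in NG and at 3.15, 1.75 and 7.73 TPM in HG. Its log2 fold change was -1.19 ± 0.38 (limma, adjusted p = 0.0205), and HG replicate 3 was again the library nearest to NG. SPRED2 was the least certain of the 5 calls and was called under 4 of 16 alternatives, whereas DUSP6 and SPRY2 were called under all 16.

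ETV4 was at 14.31, 13.99 and 14 TPM in NG and at 9.67, 10.1 and 15.6 TPM in HG. ETV5 was at 20.6, 22.5 and 22.3 TPM in NG and at 20.6, 11.3 and 19.2 TPM in HG. For both the groups overlapped, with log2 fold changes of -0.27 and -0.38 (adjusted p of 0.275 and 0.306 in limma) that lay 0.12 and 0.01 above the median of all genes, and that were positive after median-of-ratios scaling at 0.21 and 0.12. ETV4 shares 68 exonic bases with DHX8 on the opposite strand, which was at 12.5 to 27.4 TPM over the libraries. ETV5 shares 164 with DGKG on its own strand, which was at most 2.63 TPM.

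**Figure D3:**
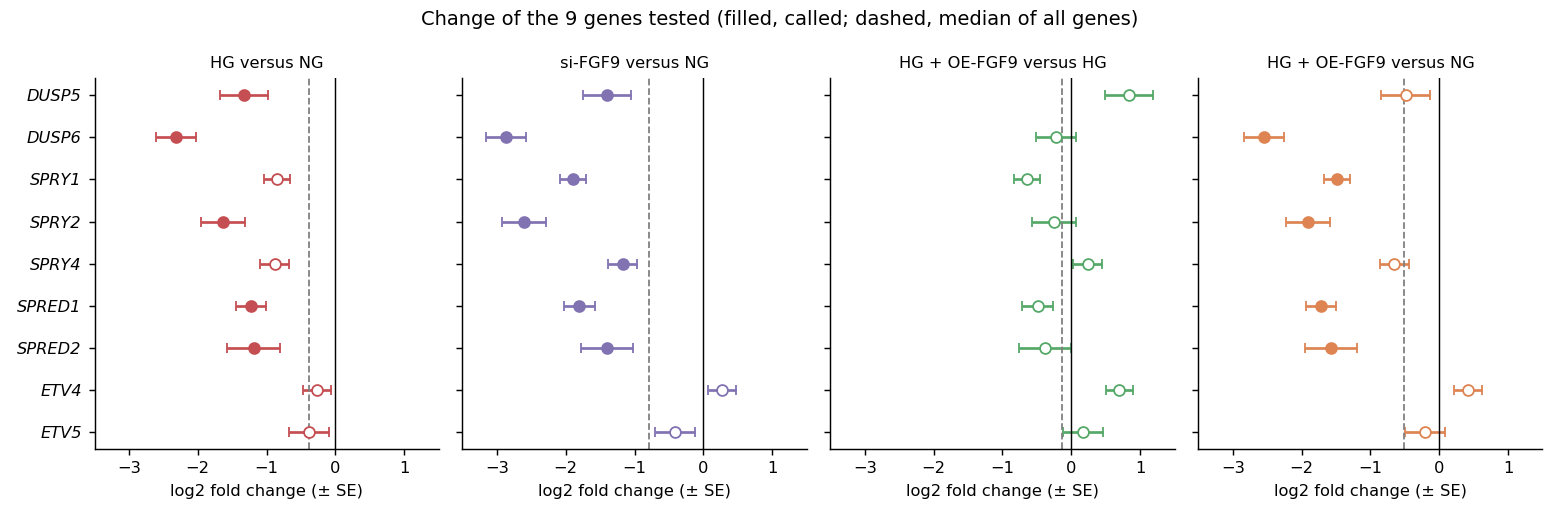
Log2 fold change of each of the 9 genes tested (y axis) in the 4 comparisons (panels), on the log2(TPM + 1) scale with the SE as bars. Filled points were called, open points were not, and the dashed line is the median of all genes tested. The 7 DUSP, Sprouty and SPRED genes lie left of the dashed line in HG and si-FGF9 against NG, and no point is filled in HG + OE-FGF9 versus HG.

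The comparison of si-FGF9 with NG addresses what the siRNA against FGF9 does at normal glucose. Of the 9 genes tested, 7 were called lower in si-FGF9 and 0 higher, which are all DUSP, Sprouty and SPRED genes tested. Here 42.2% of all genes tested were called lower and 5.36% higher, and the median was -1.40 over the 9 genes against -0.79 over all genes. DUSP6 was at 1.74, 2.06 and 3.77 TPM, 10.5% of its mean in NG, with a log2 fold change of -2.87 (limma, adjusted p = 1.05e-05). SPRY2 was at 4.52, 5.85 and 6.66 TPM, with a log2 fold change of -2.61 (limma, adjusted p = 2.8e-05).

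SPRY1 was at 0.53, 0.50 and 0.18 TPM, 9.5% of its mean in NG, with a log2 fold change of -1.90 (limma, adjusted p = 9.66e-06). SPRED1 was at 0.61, 0.66 and 0.91 TPM, with a log2 fold change of -1.80 (limma, adjusted p = 2.6e-05). SPRY4 was at 0.54, 0.63 and 0.99 TPM, with a log2 fold change of -1.17 (limma, adjusted p = 0.000333). All 3 genes were below 1 TPM in every si-FGF9 library and above 2 TPM in every NG library. DUSP5, at 12.68, 14.95 and 13.22 TPM, and SPRED2, at 2.85, 3.37 and 2.80 TPM, both had a log2 fold change of -1.40, with adjusted p of 0.00356 and 0.00521 in limma. Relative to the median of all genes both lay 0.61 lower, against 2.07 for DUSP6 and 1.81 for SPRY2.

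ETV4 was higher in every si-FGF9 library, at 19.1, 15.1 and 17.8 TPM, than in every NG library, with a log2 fold change of 0.27 that did not pass the test (limma, adjusted p = 0.236). After median-of-ratios scaling and after quantile normalization, both of which centre the genes between libraries, its log2 fold change was 1.26 and 1.21 and was called. The GC-corrected value was 0.25, and ETV4 was not called under 14 of 16 alternatives. ETV5 was at 12, 27.97 and 12.39 TPM, so that 1 si-FGF9 library lay above NG and the other two below. Its log2 fold change was -0.41 (limma, adjusted p = 0.232), and 0.58 after median-of-ratios scaling.

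HG + OE-FGF9 was compared with HG to see whether added FGF9 changes the response to high glucose. Of the 9 genes tested, limma called 0 lower and 0 higher, while 2.67% of all genes were called lower and 2.94% higher. At an unadjusted p under 0.05, 4 of the 9 genes passed in limma (DUSP5, SPRY1, SPRED1 and ETV4), compared with 28.2% of all genes. The usual readouts of FGF signalling were not called. DUSP6 was at 2.56, 2.42 and 5.45 TPM in HG + OE-FGF9, around the HG libraries, with a log2 fold change of -0.22 ± 0.29 (limma, adjusted p = 0.63). SPRY4 was at 1.33, 1.15 and 2.00 TPM, with a log2 fold change of 0.24 ± 0.21 (limma, adjusted p = 0.476). ETV5 was at 17.71, 18.57 and 19.99 TPM, with a log2 fold change of 0.17 ± 0.29 (limma, adjusted p = 0.721). For these genes the HG and HG + OE-FGF9 libraries overlapped.

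ETV4 had the lowest adjusted p of the 9 genes. It was at 17.0, 17.7 and 23.6 TPM in HG + OE-FGF9, above all HG libraries, with a log2 fold change of 0.70 ± 0.20 (limma, adjusted p = 0.0461), which was under the minimum fold change. DUSP5 was at 26.8, 25.6 and 27.0 TPM, between the low and the high HG libraries, with a log2 fold change of 0.84 (limma, adjusted p = 0.144). Without HG replicate 3 it was called at 1.41, and with median-of-ratios scaling at 1.01. SPRY1 was lower in all HG + OE-FGF9 libraries, at 0.74, 1.10 and 0.74 TPM, than in all HG libraries, with a log2 fold change of -0.64 (limma, adjusted p = 0.0532). SPRY2 at 7.99, 7.75 and 15 TPM, SPRED1 at 0.68, 0.69 and 1.11 TPM and SPRED2 at 1.97, 1.69 and 4.62 TPM overlapped HG and had log2 fold changes of -0.25, -0.49 and -0.38. Without HG replicate 3 those of SPRY2 and SPRED2 were 0.09 and 0.07.

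Against NG, HG + OE-FGF9 had 5 of the 9 genes called lower (DUSP6, SPRY1, SPRY2, SPRED1 and SPRED2) and 0 higher, with 32.7% of all genes tested called lower and 7.01% higher. The median log2 fold change was -1.49 over the 9 genes and -0.51 over all genes. DUSP6 was at 14.4% of its mean in NG, with a log2 fold change of -2.54 (limma, adjusted p = 4.33e-05). SPRY2 had a log2 fold change of -1.90 (adjusted p = 0.00033 in limma), SPRED1 of -1.72 (6.77e-05), SPRED2 of -1.57 (0.00301) and SPRY1 of -1.49 (6.58e-05). SPRY4 had a log2 fold change of -0.65 (limma, adjusted p = 0.0173) and was not called.

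DUSP5 was not among them, with all 3 libraries below NG, a log2 fold change of -0.49 (limma, adjusted p = 0.242) and one of 0.18 after median-of-ratios scaling. ETV4 was above NG in all 3 libraries, with a log2 fold change of 0.42 (limma, adjusted p = 0.0764), and was called at 1.06 after median-of-ratios scaling and at 1.09 after quantile normalization. It was not called under the other 14 of 16 alternatives, with 0.20 after the correction for GC content. ETV5 was below NG in all 3 libraries, with a log2 fold change of -0.21 (limma, adjusted p = 0.553), and at 0.45 after median-of-ratios scaling. An exact two-sided permutation test of 1 gene with 3 libraries against 3 cannot give a p below 0.1. In bulk RNA, fewer cells expressing a gene and less of its RNA per cell cannot be told apart.

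The ratio of 2 genes within a library does not depend on its scaling, and 3 ratios, chosen after the values were seen, are given as a description without a test. DUSP6 and ETV5, 2 genes of similar GC content (46.7% and 48.6%), stood at 1.35, 1.05 and 0.931 to 1 in NG. In HG the ratio was 0.261, 0.296 and 0.184. It was 0.145, 0.130 and 0.273 in HG + OE-FGF9 and 0.145, 0.0737 and 0.304 in si-FGF9. Every library of the other groups was below every NG library. The DUSP6 to DUSP5 ratio was 0.754, 0.623 and 0.553 in NG and 0.537, 0.385 and 0.108 in HG. It was 0.0955, 0.0944 and 0.202 in HG + OE-FGF9 and 0.137, 0.138 and 0.285 in si-FGF9, so that here too no library reached NG, with HG replicate 1 just below it. DUSP5 has a higher GC content (55.9%) than DUSP6 (46.7%), and the part of this in their ratio was not tested. The SPRY2 to SPRED2 ratio was 4.77, 4.11 and 3.51 in NG and 3.85, 3.92 and 2.55 in HG. It was 4.06, 4.59 and 3.25 in HG + OE-FGF9 and 1.59, 1.74 and 2.38 in si-FGF9, so that HG and HG + OE-FGF9 overlapped NG and si-FGF9 did not.

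The fold changes against NG moved with GC content over all genes, and the part of this in the values of single genes was not tested. The most AT-rich 20% of the genes tested had medians of -1.15 in HG, -1.5 in HG + OE-FGF9 and -1.71 in si-FGF9, whereas the most GC-rich 20% had medians of 0.21, 0.23 and 0.03. Among the 10 genes the GC content of the longest transcript went from 38.9% in SPRED1 to 60.8% in ETV4, with a median of 48.3% over the genes tested. A correction that subtracts a smooth trend on GC content from each library left DUSP6 at -1.82 in HG, -1.98 in HG + OE-FGF9 and -2.0 in si-FGF9 against NG, and SPRY2 at -1.25, -1.49 and -1.86, all of them called. For SPRED1 the corrected log2 fold changes were -0.15, -0.32 and -0.18 in the same order, and for SPRY1 -0.20, -0.72 and -0.84, none of them called. As deposited, their means in si-FGF9 were 14.6% and 9.5% of those in NG. The correction shifts genes of like GC content alike, while changes at such low TPM are understated on the log2(TPM + 1) scale. Whether it overcorrects these 2 genes was not tested. SPRED2 was called in HG + OE-FGF9 at -1.19, and at -0.81 and -0.68 it was not called in HG and si-FGF9. DUSP5 was called in HG at -1.29, but its call in si-FGF9 was lost at -1.10, as was that of SPRY4 at -0.55. DUSP6, SPRY2, SPRED2 and ETV5 have GC contents of 46.7% to 48.7%, and within this range the uncorrected log2 fold change in HG went from -2.32 in DUSP6 to -0.38 in ETV5.

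**Figure D4:**
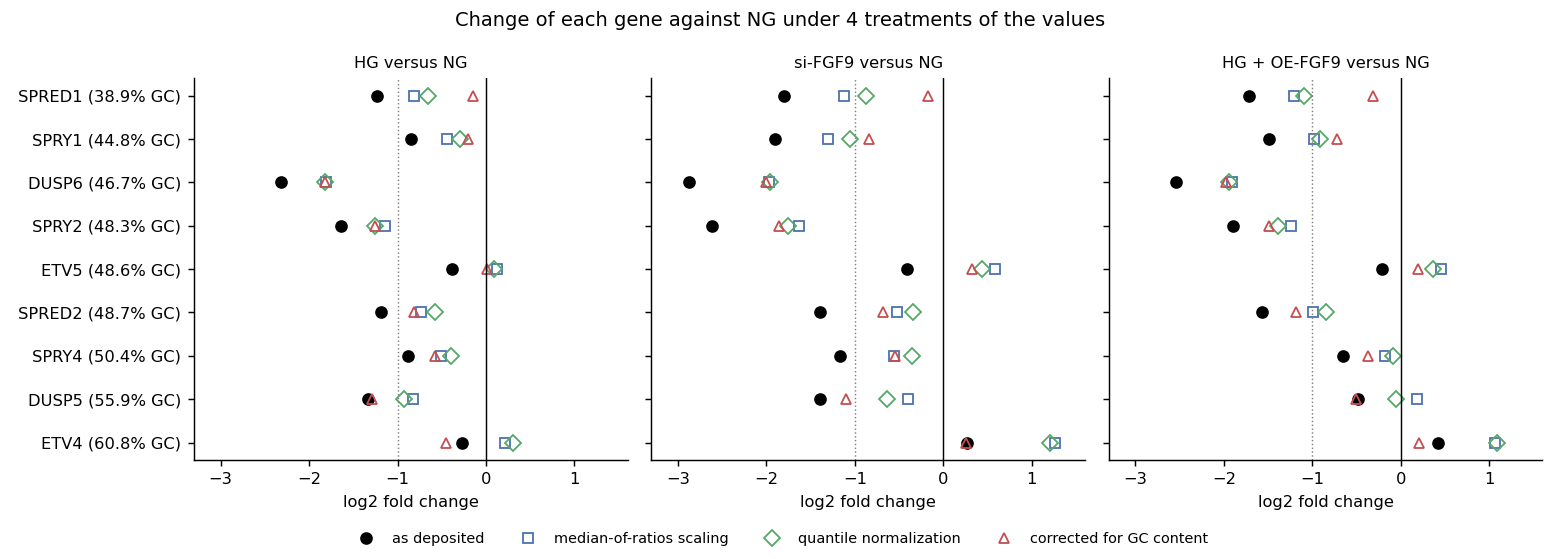
Log2 fold change against NG (x axis) of the 9 genes tested, ordered by GC content (y axis), for the 3 other groups (panels), from the TPM as deposited and after median-of-ratios scaling, quantile normalization or correction for GC content. The dotted line marks the minimum fold change for a lower call. DUSP6 and SPRY2 stay left of it under all 4 treatments, SPRED1 moves to between -0.32 and -0.15 with the GC correction, and ETV5 lies right of 0 after each of the 3 adjustments.

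The remaining genes of the pathway were taken from 5 lists. Of the 76 listed genes tested, HG had 36 called lower and 1 higher against NG, HG + OE-FGF9 had 38 and 2, and si-FGF9 had 46 and 3, where 22.7%, 32.7% and 42.2% of all genes tested were called lower. After correction for GC content 14, 20 and 28 of the listed genes were called lower, with 3.06%, 11.8% and 12% of all genes. FGF9 passed the filter only through HG + OE-FGF9 and GAB1 and EGR2 only through NG, so that the direction of their calls was fixed by the filter. Without these 3 genes 35, 37 and 44 of 73 were called lower. HG + OE-FGF9 versus HG then had 0 lower and 1 higher in limma, the AP-1 gene FOSB with a log2 fold change of 1.35.

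Among the receptors and adaptors, without FGF9 and GAB1, 5 of 11 genes tested were called lower in HG, 6 in HG + OE-FGF9 and 6 in si-FGF9, with 22.7%, 32.7% and 42.2% of all genes. PTPN11, the phosphatase SHP2 that couples receptors to RAS, had the largest decrease of this list in all 3, with log2 fold changes of -1.69, -2.28 and -2.57 in that order. In the RAS-ERK kinase core, 6, 7 and 8 of 14 were called lower. RPS6KA3, an ERK-activated kinase, had log2 fold changes of -1.61 in HG and -2.83 in si-FGF9. The core also held genes called higher, HRAS at 1.10 in HG and 1.62 in HG + OE-FGF9, and the MEK gene MAP2K2 at 1.80 in si-FGF9.

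Of 19 other negative regulators tested, 9 were called lower in HG, 8 in HG + OE-FGF9 and 12 in si-FGF9, against the same 22.7%, 32.7% and 42.2% of all genes. RASA1, a GTPase-activating protein for RAS, had the largest decrease, at -2.35, -2.98 and -3.66. Of 15 ERK-responsive genes, without EGR2, 8, 8 and 10 were called lower. The immediate early gene FOS had a mean of 260 TPM in NG and 2.84 TPM in HG, with a log2 fold change of -6.47 (limma, adjusted p = 1.39e-05), and EGR1 had a mean of 132 TPM in NG against 1.18 TPM in HG + OE-FGF9 (log2 fold change of -5.93) and 0.327 TPM in si-FGF9 (-6.67). Of 14 ETS factors and their partners, 7, 8 and 8 were called lower, with ETS1 at -2.03 in HG and -3.60 in si-FGF9 and ELK4 at -2.70 in HG + OE-FGF9. The median log2 fold change of each list was below 0 in the 3 comparisons with NG, also after median-of-ratios scaling, quantile normalization and the correction for GC content. After the GC correction, 0 of 13 receptors and adaptors, with FGF9 and GAB1, were called lower in HG, and 1 of 14 kinase core genes. In HG these were 5 of 19 other negative regulators, 7 of 16 ERK-responsive genes, with EGR2, and 1 of 14 ETS factors and partners. In the same order 4, 1, 4, 7 and 4 were called lower in HG + OE-FGF9. In si-FGF9 they were 2, 5, 6, 8 and 7. Over the 5 lists 1, 2 and 5 were called higher in HG, HG + OE-FGF9 and si-FGF9. Over all genes 3.78%, 11.3% and 12.3% were called higher, and 3.06%, 11.8% and 12% lower. In each comparison 1 higher call was among the receptors and adaptors, with FGF9. The correction also shifts genes listed at 0 TPM, such as FGF9 in NG, HG and si-FGF9. A higher call of this list in HG or si-FGF9 may therefore not reflect measured RNA.

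**Figure D5:**
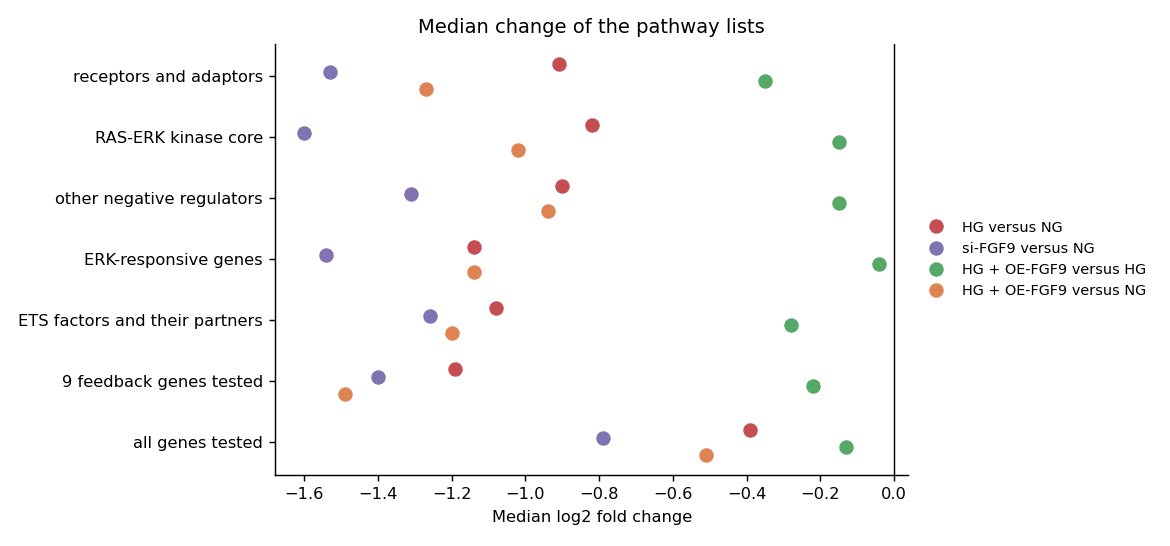
Median log2 fold change (x axis) of the 5 pathway lists, of the 9 feedback genes tested and of all genes tested (y axis), with 1 point for each comparison. In the 3 comparisons with NG every list lies left of the median of all genes, and in HG + OE-FGF9 versus HG the lists lie between -0.35 and -0.04.

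Across the 12 libraries, which share their normalization and GC trend, the log2(TPM + 1) values of SPRY2 and SPRED1 had a Pearson correlation of 0.97 and those of DUSP6 and SPRED1 of 0.95. ETV4 had correlations of -0.50 with SPRY1 to 0.36 with DUSP5. The tested genes most like DUSP6 over the 12 libraries were GCNT3 (Pearson r = 0.9931), TNFRSF10A-AS1 (0.9909) and ZNF441 (0.9855). For SPRY4 they were ABLIM3 (0.9832), HMGXB3 (0.9816) and CPEB1 (0.9749). For ETV5 they were FRMD4A (0.8406) and the identifiers ENSG00000278932 (0.8401) and ENSG00000289132 (0.8346). NG stood apart from the other groups in many of these genes, so that the values describe the pattern over these libraries only.

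The 3′ untranslated regions differed in their AU-rich pentamers, which are known from unstable transcripts of early response genes. ATTTA occurred 4.297 times per kilobase in SPRED1, 3.31 in SPRY1 and 2.56 in SPRY2, and not at all in DUSP5 and ETV4. SPRED1 and SPRY1 also had the lowest GC contents of the genes described here, at 38.9% and 44.8% of the longest transcript. DUSP5 and ETV4 had the highest, at 55.9% and 60.8%. The part of GC content in these densities was not tested, nor was a link between the densities and the fold changes. DUSP6, with the largest changes, had 0.495 per kilobase, compared with a median of 1.53 over 11956 genes tested.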

How the data were processed

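RNA of HK2 cells was sequenced in 12 libraries, grouped by the sample labels. The authors deposited TPM for 62703 Ensembl gene identifiers, given to 2 decimals. The submitters' processing notes name Bowtie 0.12.2 and mm8, a mouse build, although the identifiers are human; the quantification tool is not given in the sources used here. TPM keep no depth, so counting error cannot be estimated and count models do not apply.

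limma 3.58.1 in R 4.3.3 was fitted to log2(TPM + 1) of all 12 libraries, with group as the only term, an empirical Bayes trend, and genes with at least 1 TPM in 3 or more libraries. Calls used the criteria of the study (log2 fold change of at least 1, unadjusted p under 0.01), with Benjamini-Hochberg adjusted p over 14639 genes. The fit was tested on simulated data.

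The genes, pathway lists and named genes (all 10 genes, FGF9, the largest call of each list and direction, and the 3 genes most like DUSP6, SPRY4 and ETV5) were chosen with earlier results of these data known. GC content was taken from the longest GENCODE release 29 transcript and corrected with a spline of 5 degrees of freedom. Alternatives were another pseudocount, no filter, 6 libraries only, the replicate number as a block, adjusted p, 2 scalings, the GC correction and each library left out. A pooled table with identical values was not used. The value of 1 listed gene that the naming rule selects is not reported here.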

Additional observations from a re-analysis of the deposited data

How the results depend on the processing

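DUSP6 and SPRY2 were called lower in all 3 comparisons with NG under all 16 alternatives of each comparison. Of the 9 genes tested, the number called in HG versus NG (5) was 3 with only the 6 libraries of the comparison, 2 after median-of-ratios scaling, 2 after quantile normalization, 3 after the correction for GC content, and 2 to 6 with 1 library left out (2 without HG replicate 2, 3 without HG replicate 1, 6 without HG replicate 3). For si-FGF9 versus NG (7) it was 4 after quantile normalization (3 lower and ETV4 higher) and 2 after the GC correction, and for HG + OE-FGF9 versus NG (5) it was 3 after the GC correction. For HG + OE-FGF9 versus HG (0) it was 1 with an adjusted p under 0.05 and no minimum fold change (ETV4), 1 after median-of-ratios scaling and 0 to 1 with 1 library left out (1 without HG replicate 3), both of the latter DUSP5. After the GC correction 3.06%, 12% and 11.8% of all genes were called lower in HG, si-FGF9 and HG + OE-FGF9 against NG. Higher calls made up 3.78%, 12.3% and 11.3% in the same order. Shares of all genes with quantile normalization, with 6 libraries only and with 1 library left out are not set beside these counts. The same-numbered libraries of different groups did not deviate together (correlations of -0.439 to 0.248 over 18 pairs), so that the numbers do not pair them. The replicate block gave 5, 7, 0 and 5 calls in the 4 comparisons, and 3, 2, 0 and 3 together with the GC correction. Averaging HG + OE-FGF9 replicates 1 and 2, an alternative chosen after seeing the data, gave 5, 7, 0 and 5.

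The direction turned for values that were not called. For ETV5 against NG the log2 fold change was 0.12, 0.09 and 0.01 in HG after median-of-ratios scaling, quantile normalization and the GC correction (0.01 with the block), 0.45, 0.36 and 0.19 in HG + OE-FGF9 (0.19 with the block), and 0.58, 0.44 and 0.32 in si-FGF9 (0.32 with the block). For ETV4 in HG it was 0.21 and 0.30 after the scalings, and for DUSP5 in HG + OE-FGF9 against NG 0.18. In HG + OE-FGF9 versus HG, leaving out 1 library gave ETV5 between -0.08 (without HG replicate 2) and 0.33, SPRY2 between -0.61 and 0.09 (without HG replicate 3), and SPRED2 between -0.76 and 0.07 (without HG replicate 3). The causes were not tested.

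Over all genes, the calls of HG versus NG were 3328 lower and 242 higher as deposited and 1211 and 1088 after median-of-ratios scaling, those of si-FGF9 versus NG 6181 and 785 against 2557 and 2812, those of HG + OE-FGF9 versus NG 4792 and 1026 against 2476 and 2605, and those of HG + OE-FGF9 versus HG 391 and 430 against 261 and 533. The listed pathway genes called lower, recomputed under alternatives chosen after seeing the data, were 16, 19 and 14 in HG (36), 22, 26 and 20 in HG + OE-FGF9 (38), and 25, 29 and 28 in si-FGF9 (46) after median-of-ratios scaling, quantile normalization and the GC correction. Their lists' medians in HG + OE-FGF9 versus HG turned to 0.01 for the kinase core and for the other negative regulators after median-of-ratios scaling, and for the ERK-responsive genes to 0.12 after it, 0.01 after quantile normalization and 0.22 without HG replicate 3. Values under 1 TPM, as for SPRY1, SPRY4 and SPRED1 in si-FGF9, have an unknown number of reads behind them.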
